A study of Mus musculus with 8 samples.

Results

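The response of mouse alveolar macrophages to Poly(I:C) was measured in cells that had all been given MSDC. The comparison uses 4 of the 8 RNA-seq libraries of the study, chosen by their treatment labels. In 2 libraries the cells received MSDC at 10 µM for 2 h and then Poly(I:C) at 5 µg/mL. In the other 2 the cells received MSDC at 10 µM and no Poly(I:C). MSDC was present on both sides, so the differences below are those that went with Poly(I:C), with MSDC held constant. The remaining 4 libraries, Poly(I:C) with vehicle and vehicle (DMSO), entered the model for its estimate of the spread and serve as a second comparison near the end. The macrophages came from lung lavage fluid, were purified by adherence for 2 h and were kept in GM-CSF at 10 ng/ml in every group. Poly(I:C) was left on for 24 h per the sample labels, whereas the series text says overnight. MSDC is a code prefix shared by several inhibitors of the carrier that takes pyruvate into mitochondria, and which of them was given is not stated in the labels. Neither a mouse strain nor the origin of replicates (separate mice, separate cultures) is stated either. The p-values below therefore cover the spread between the deposited libraries alone, and that spread may be technical. Of the 15521 genes in the table, 11621 had enough counts to be tested.

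Poly(I:C) is a synthetic double-stranded RNA that stands in for viral RNA. Endosomal Tlr3 and the cytoplasmic sensors RIG-I and MDA5 recognise such RNA and switch on type I interferon and NF-kB target genes. Secreted interferon then acts through its receptor and the kinases JAK1 and TYK2 on a complex of transcription factors, STAT2 and IRF9 among them, that binds the interferon-stimulated response element (ISRE) in the promoters of antiviral genes. Alveolar macrophages are the resident phagocytes of the airspaces and are known as a source of type I interferon in viral infections of the lung.

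Libraries were of nearly equal depth, with 28762425 to 29493223 counts over all 8. The level unit is CPM, the count scaled to a TMM-normalised library of 1000000, and each level is given for replicate 1 and then replicate 2 of a group. Calls were made with edgeR's quasi-likelihood test where the p adjusted by Benjamini and Hochberg over all tested genes was under 0.05, and every adjusted p below comes from that test. Fold changes are log2 values with their standard error (SE), Poly(I:C) with MSDC over MSDC. All 28 genes of a list marking alveolar macrophages passed the filter on low counts, and their summed level was 30080 and 30600 CPM in Poly(I:C) with MSDC, against 30760 and 30390 CPM in MSDC. Markers of B, plasma, T and NK cells were low. B and plasma cell markers summed to at most 0.138 CPM and T and NK cell markers to at most 0.629 CPM in a library. The other sums are given with the results they stand beside.

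Poly(I:C) raised many more transcripts than it lowered in the MSDC-treated cells, and by far larger factors. Of the 11621 genes, 560 were called higher (4.82%) and 174 lower (1.5%). Among the genes called higher, 230 rose at least 2-fold (1.98% of all tested) and 63 at least 16-fold by the fitted change, of which 13 had 0 counts in MSDC, so that the fitted size is not a bound for them. Among those called lower only 2 fell by 2-fold or more (0.0172%), and 150 of the 174 changed by less than 0.5 on the log2 scale. The median log2 change was 0.79 over genes called higher and -0.34 over genes called lower, beside 0.00 over all tested genes. Together the genes called higher made up 9.24% and 9.35% of the counts in Poly(I:C) with MSDC, against 5.75% and 5.67% in MSDC. The count of higher genes was 351 without MSDC replicate 2. The count of lower genes was less stable, at 50 without MSDC replicate 1, 63 without MSDC replicate 2, 77 without Poly(I:C) with MSDC replicate 1, 54 without Poly(I:C) with MSDC replicate 2, 331 without vehicle replicate 1 and 421 without vehicle replicate 2.

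**Figure D1:**
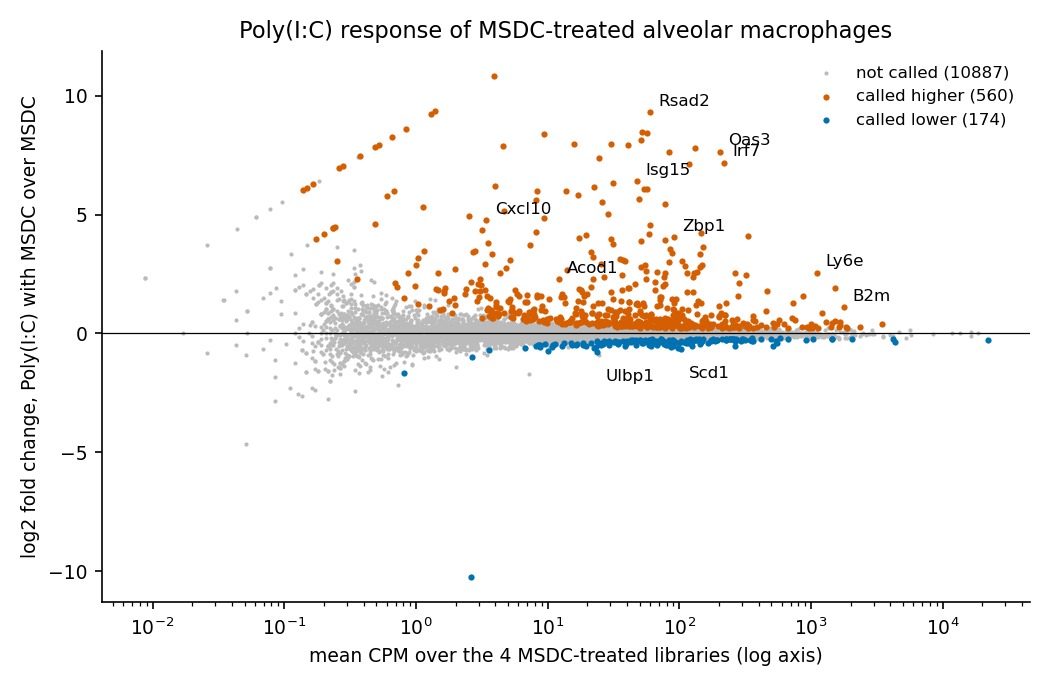
Each point is 1 of the 11621 tested genes. The horizontal axis is the mean CPM over the 4 MSDC-treated libraries on a log axis, and the vertical axis is the log2 fold change of Poly(I:C) with MSDC over MSDC. The 560 genes called higher (orange) reach far above 0, while the 174 called lower (blue) lie in a narrow band under 0 apart from Hyal1 at -1.67 and the predicted gene Gm14434 at -10.26; the slanted line of points at the upper left is made of genes at or near 0 counts in MSDC, whose fitted size is no bound.

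The largest rises were genes of the interferon-induced antiviral program, and the 4 promoters below are shown because they belong to the strongest of these genes and hold the core of the ISRE. The letters searched were a pair of GAAA copies with any 2 bases between them, on either strand of the window. Sequences are RefSeq promoter windows of the mouse build GRCm38.p6, 5′ to 3′ on the strand of the gene, and run over 300 bases, of which 250 lie before the annotated start and 50 after it. Capitals mark the matches. The Ifit1bl1 window is chr19:34601919-34602218 on the minus strand, the Rsad2 window chr12:26456403-26456702 on the minus strand, the Ifit1 window chr19:34640639-34640938 on the plus strand and the Ifit3 window chr19:34583279-34583578 on the plus strand.
Ifit1bl1: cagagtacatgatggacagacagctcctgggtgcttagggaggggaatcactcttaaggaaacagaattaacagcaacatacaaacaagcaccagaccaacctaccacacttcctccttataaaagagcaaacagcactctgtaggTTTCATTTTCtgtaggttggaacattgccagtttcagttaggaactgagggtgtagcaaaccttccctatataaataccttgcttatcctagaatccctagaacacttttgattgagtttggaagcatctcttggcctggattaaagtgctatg
Rsad2: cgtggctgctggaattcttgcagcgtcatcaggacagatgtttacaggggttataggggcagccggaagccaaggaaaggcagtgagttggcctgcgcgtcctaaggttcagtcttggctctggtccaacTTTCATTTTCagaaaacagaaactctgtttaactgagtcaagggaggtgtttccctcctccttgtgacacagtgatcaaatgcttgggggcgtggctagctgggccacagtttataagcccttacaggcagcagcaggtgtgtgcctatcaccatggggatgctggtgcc
Ifit1: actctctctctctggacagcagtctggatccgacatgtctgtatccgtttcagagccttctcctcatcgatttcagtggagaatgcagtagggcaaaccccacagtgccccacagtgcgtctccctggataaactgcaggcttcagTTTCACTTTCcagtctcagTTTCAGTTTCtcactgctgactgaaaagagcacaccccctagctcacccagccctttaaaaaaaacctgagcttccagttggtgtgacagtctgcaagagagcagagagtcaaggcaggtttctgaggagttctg
Ifit3: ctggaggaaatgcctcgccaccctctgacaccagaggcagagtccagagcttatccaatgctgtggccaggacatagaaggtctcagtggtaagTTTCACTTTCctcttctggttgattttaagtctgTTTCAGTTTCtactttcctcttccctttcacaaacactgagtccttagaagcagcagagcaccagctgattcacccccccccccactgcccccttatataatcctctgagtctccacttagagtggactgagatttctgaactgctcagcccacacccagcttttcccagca
The match began 104 bases before the start in Ifit1bl1, 120 bases before it in Rsad2, 104 and 85 bases before it in Ifit1, and 156 and 122 bases before it in Ifit3. Ifit1 and Ifit3 thus carry a pair of matches each, and Ifit1bl1 and Rsad2 a single match with the same 10 letters.

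IFIT proteins bind viral RNA and block its translation, and they rose most as a family: all 6 tested members were called higher, with a median log2 change of 8.44 (7.82 with the 2 members at 0 counts in MSDC set to their lower bounds), beside 4.82% called higher and a median of 0.00 over all tested genes. Ifit1 stood at 108 and 99.2 CPM in Poly(I:C) with MSDC, against 0.0688 and 0.507 CPM in MSDC. Ifit3, a partner of Ifit1, stood at 111 and 115 CPM, against 0.0688 and 0.574 CPM in MSDC. Ifit2 stood at 112 and 113 CPM, against 1.24 and 2.06 CPM in MSDC. The groups were far apart for all 3 genes, and MSDC replicate 1 was lower than replicate 2. Their fitted changes were 8.46 (SE 0.29, adjusted p = 7.9e-12), 8.43 (SE 0.25, adjusted p = 1.7e-12) and 6.09 (SE 0.14, adjusted p = 2.4e-13). The size of the first 2 depended on which MSDC library was used. Without MSDC replicate 1 the changes were 7.66 for Ifit1 and 7.61 for Ifit3. Without MSDC replicate 2 each had only 2 counts left as its baseline, which gives a ratio of 1484 for Ifit1 (95% counting interval 411 to 12250) and of 1618 for Ifit3 (95% counting interval 448 to 13370). Such intervals cover counting error only. Ifit3b, a near copy of Ifit3 between which reads could be split, had 3 counts in the MSDC group against 1079 with Poly(I:C), a ratio of 362 (95% counting interval 123 to 1757). Those 3 counts were all in replicate 2, and without it the ratio was at least 180-fold. Ifit1bl1 and Ifit1bl2 had 0 counts in both MSDC libraries. If 3 counts are taken as the limit for the MSDC group, Ifit1bl1 was at least 151-fold higher and Ifit1bl2 at least 54-fold higher. The family lies side by side at chr19:34550550-34662981, where all 6 tested genes of the interval rose.

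The OAS enzymes are switched on by double-stranded RNA and make 2'-5' oligoadenylates, which set off the cutting of viral and cellular RNA. Of the 8 tested genes on the list of OAS enzymes and their pathway, 7 were called higher, with a median of 6.86. Among all tested genes 4.82% were called higher. Oas3 stood at 386 and 422 CPM in Poly(I:C) with MSDC, against 0.620 and 3.38 CPM in MSDC, a change of 7.65 (SE 0.41, adjusted p = 1.4e-09). Oas1a stood at 265 and 285 CPM, against 14.1 and 15.5 CPM in MSDC, a change of 4.22 (SE 0.13, adjusted p = 2.7e-12). Oas2 stood at 78.7 and 82.7 CPM, against 0.241 and 0.406 CPM in MSDC, a change of 7.94 (SE 0.37, adjusted p = 2.3e-10). Of these 3 genes Oas1a rose least. Oasl1, which restrains translation of Irf7, and its relative Oasl2 changed by 7.38 and 7.8. Without MSDC replicate 1 the changes were 6.90 for Oas3, 6.79 for Oasl1 and 6.95 for Oasl2, and without MSDC replicate 2 they were 9.32, 8.41 and 10.27. Oas1g changed by 6.34, by 5.56 without MSDC replicate 1 and by 8.19 without MSDC replicate 2. The Oas1 to Oas3 genes sit together at chr5:120730333-120907544, and all 5 tested there rose.

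Other effectors spanned several ways of blocking a virus, and 21 of 24 tested were called higher, with a median of 2.62. The share of all tested genes called higher was 4.82%. Rsad2 (viperin), which makes a chain-terminating nucleotide, stood at 120 and 121 CPM in Poly(I:C) with MSDC, against 0.0344 and 0.338 CPM in MSDC. Its neighbour Cmpk2, a mitochondrial nucleotide kinase, stood at 102 and 103 CPM, against 0.0344 and 0.676 CPM in MSDC. The fitted changes were 9.29 (SE 0.25, adjusted p = 5.1e-13) for Rsad2 and 8.14 (SE 0.32, adjusted p = 3.3e-11) for Cmpk2. Without MSDC replicate 1 they were 8.46 and 7.24. Without MSDC replicate 2 the baseline of each was a single count, in MSDC replicate 1, with a ratio of 3455 for Rsad2 (95% counting interval 620 to 136500) and of 2941 for Cmpk2 (95% counting interval 528 to 116200). Rtp4, which inhibits flavivirus replication, stood at 162 and 167 CPM, against 0.0688 and 1.55 CPM in MSDC, a change of 7.65 (SE 0.43, adjusted p = 3e-09). Without MSDC replicate 1 it was 6.72, and against the 2 counts of MSDC replicate 1 alone the ratio was 2364 (95% counting interval 654 to 19520). Bst2 (tetherin), which holds budding virions at the cell surface, was already present in MSDC at 23.9 and 27.7 CPM and stood at 242 and 277 CPM with Poly(I:C), a change of 3.33 (SE 0.09, adjusted p = 1.1e-12). Ifi27l2a, a small interferon-induced protein, changed by 5.02, Xaf1, a pro-apoptotic factor, by 6.16, and the nuclear body protein Sp100 by 3.53. Replicates were not fully alike in either group. Over the 107 tested genes of the 10 antiviral effector lists, 66 were higher in Poly(I:C) with MSDC replicate 2 than in its replicate 1 (61.7%), beside 52.1% of all tested genes. In MSDC 70 of the 107 were higher in replicate 2 than in replicate 1 (65.4%), beside 46.2% of all tested genes. Of the 107 genes 93 were called higher and 0 lower, with a median of 2.8. The summed level of the 107 genes was 8869 and 9129 CPM in Poly(I:C) with MSDC, against 2233 and 2282 CPM in MSDC.

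**Figure D2:**
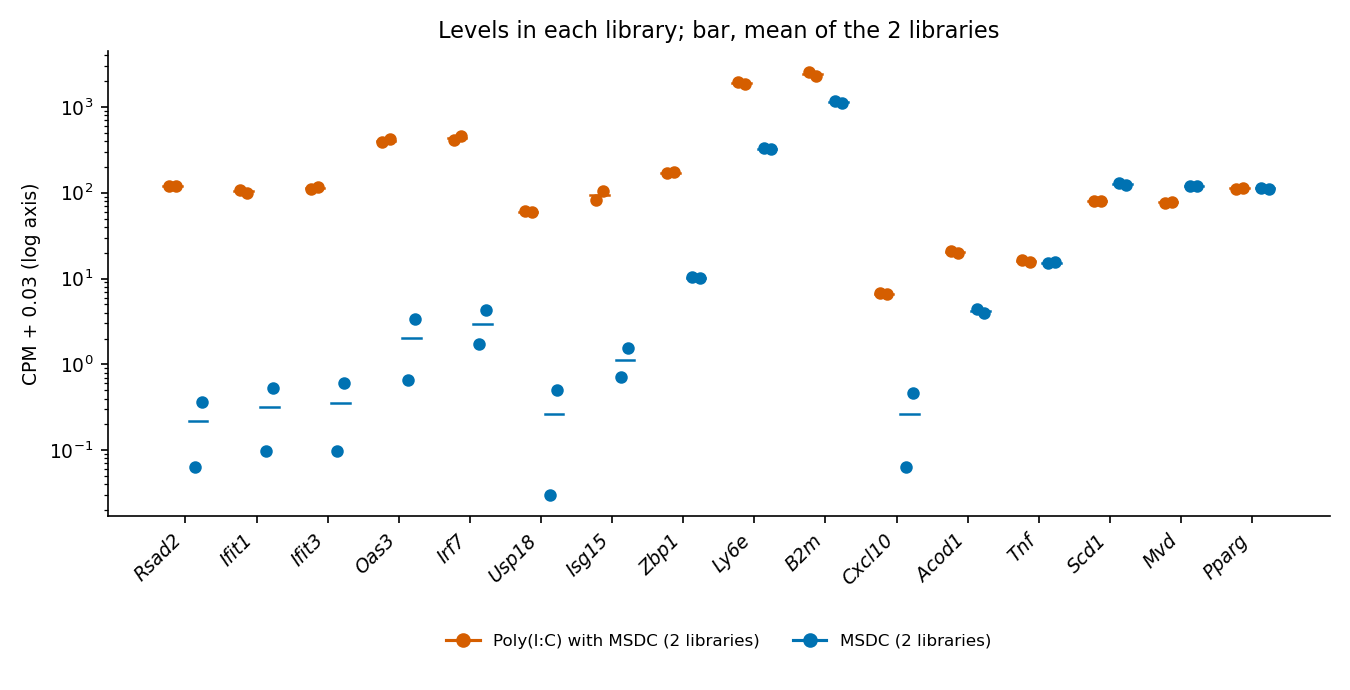
Levels in each library for 16 genes, with Poly(I:C) with MSDC (orange) left of MSDC (blue), 1 point per library and a bar at the mean of the 2 libraries; the vertical axis is CPM plus 0.03 on a log axis. Rsad2, Ifit1, Ifit3, Usp18 and Cxcl10 start below 1 CPM in MSDC with replicate 2 above replicate 1, the Tnf and Pparg points lie side by side, and Scd1 and Mvd are lower with Poly(I:C).

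GTPases that attack pathogen-containing vacuoles rose throughout. All 8 tested guanylate-binding proteins were called higher, with a median of 3.88, as were all 9 tested immunity-related GTPases, with a median of 3.07. By comparison, 4.82% of all tested genes were called higher. Gbp6 stood at 109 and 112 CPM in Poly(I:C) with MSDC, against 5.85 and 6.32 CPM in MSDC, a change of 4.18 (SE 0.15, adjusted p = 1.1e-11). Gbp2 stood at 82.6 and 95.2 CPM, against 13.1 and 12.3 CPM in MSDC, a change of 2.81 (SE 0.09, adjusted p = 3.6e-12). Irgm1, which regulates other members of its family, stood at 147 and 150 CPM, against 19.4 and 17.4 CPM in MSDC, a change of 3.01 (SE 0.08, adjusted p = 5.1e-13). Replicates were close on both sides for these 3 genes. Igtp changed by 2.93. Iigp1 had 0 counts in MSDC and was at least 18.8-fold higher with Poly(I:C). Gbp4 had 1 count in MSDC and 68 with Poly(I:C), a ratio of 68.4 (95% counting interval 11.9 to 2740). That count was in MSDC replicate 1, and without that library the ratio was at least 11.5-fold. Without MSDC replicate 2 the Gbp4 ratio was 34.0 (95% counting interval 5.90 to 1362). The Gbp genes fall into a cluster at chr3:142496934-142638008 and another at chr5:105012513-105295871, and in each all 4 tested genes rose.

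The Ifi200 proteins, which sense or bind nucleic acids, and the Schlafens, of which several act on translation or cell growth, rose as tandem clusters. All 10 tested Ifi200 genes were called higher, beside 4.82% of all tested genes, with a median of 5.04, at chr1:173468485-174031755. Ifi204 stood at 155 and 148 CPM in Poly(I:C) with MSDC, against 3.10 and 3.75 CPM in MSDC, a change of 5.46 (SE 0.14, adjusted p = 4.6e-13). Ifi207 stood at 284 and 222 CPM, against 32.9 and 39.7 CPM in MSDC, a change of 2.8 (SE 0.15, adjusted p = 1.5e-09). Ifi211 changed by 6.07 and Mndal by 3.89, and Ifi208, with 0 counts in MSDC, was at least 49.9-fold higher. All 8 tested Schlafen genes were called higher, with a median of 2.1, at chr11:82951349-83215154. Slfn5 stood at 228 and 240 CPM in Poly(I:C) with MSDC, against 1.2 and 2.1 CPM in MSDC, a change of 7.14 (SE 0.34, adjusted p = 3.7e-10). Slfn2 stood at 265 and 289 CPM, against 117 and 129 CPM in MSDC, a change of 1.17 (SE 0.07, adjusted p = 3.8e-09). On the per-length FPKM scale Slfn5 stood at 39.2 and 40.7 and Slfn2 at 164 and 177 in Poly(I:C) with MSDC. Slfn8 changed by 5.65 and Slfn9 by 0.83. Slfn1 had 2 counts in MSDC, both in replicate 2, and 527 with Poly(I:C), a ratio of 265 (95% counting interval 73.0 to 2194). It was 133 without MSDC replicate 1 (95% counting interval 36.7 to 1103) and at least 87.8-fold without MSDC replicate 2. Members of all 4 families include near copies, between which the counting may have split reads.

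Sensors of double-stranded RNA rose along with the effectors, 11 of 17 tested with 0 called lower and a median of 0.90. Among all tested genes the share called higher was 4.82%. Ddx58, which encodes RIG-I, stood at 280 and 276 CPM in Poly(I:C) with MSDC, against 21.3 and 23.2 CPM in MSDC, a change of 3.64 (SE 0.13, adjusted p = 1.5e-11). Ifih1, which encodes MDA5, the sensor of long double-stranded RNA, stood at 132 and 136 CPM, against 24.3 and 22.2 CPM in MSDC, a change of 2.52 (SE 0.09, adjusted p = 1.1e-11). Tlr3 stood at 26.9 and 27.6 CPM, against 7.85 and 7.06 CPM in MSDC, a change of 1.87 (SE 0.13, adjusted p = 2.8e-08). The groups were separate and the replicates close for each of these genes. Zbp1, a sensor of left-handed double-stranded nucleic acid that can trigger necroptosis, stood at 169 and 172 CPM, against 10.3 and 10.2 CPM in MSDC, a change of 4.06 (SE 0.07, adjusted p = 2.1e-14), the smallest adjusted p of any gene on the list. Dhx58, whose product LGP2 tunes MDA5, changed by 3.94, and the helicase Ddx60 by 4.13. Eif2ak2, which encodes PKR, changed by 2.07, the RNA-editing enzyme Adar by 1.73 and the DNA sensor Cgas by 0.90. Beside these, Unc93b1, which escorts endosomal Toll-like receptors, changed by 0.78.

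Transcripts for conjugation of the ubiquitin-like protein ISG15 rose as a group, with 6 of 7 tested genes called higher and a median of 2.28. The share called higher over all tested genes, for this and the next 2 lists, was 4.82%. Isg15 stood at 82.5 and 105 CPM in Poly(I:C) with MSDC, against 0.688 and 1.52 CPM in MSDC, a change of 6.4 (SE 0.21, adjusted p = 5.0e-12), or 7.06 without MSDC replicate 2. The activating enzyme Uba7 changed by 2.28, the conjugating enzyme Ube2l6 by 3.38, the ligase Herc6 by 2.1 and the protease Usp25 by 0.54. Usp18, which removes ISG15 and also shuts off the interferon receptor, stood at 60.9 and 59.7 CPM, against 0 and 0.473 CPM in MSDC, a change of 7.95 (SE 0.27, adjusted p = 6.4e-12). Without MSDC replicate 1 it was 6.98, and against the empty MSDC replicate 1 alone Usp18 was at least 576-fold higher. Of the TRIM ligases 12 of 14 tested were called higher, with a median of 1.41, among them Trim30a at 2.84, the antibody receptor Trim21 at 1.83 and Pml, the scaffold of nuclear bodies, at 1.45. Of the PARP family and its partners 6 of 13 tested were called higher, with a median of 0.25. The 6 included Parp9 and its partner Dtx3l at 2.00 and 2.15, Parp12 at 2.53 and Parp14 at 2.58.

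**Figure D3:**
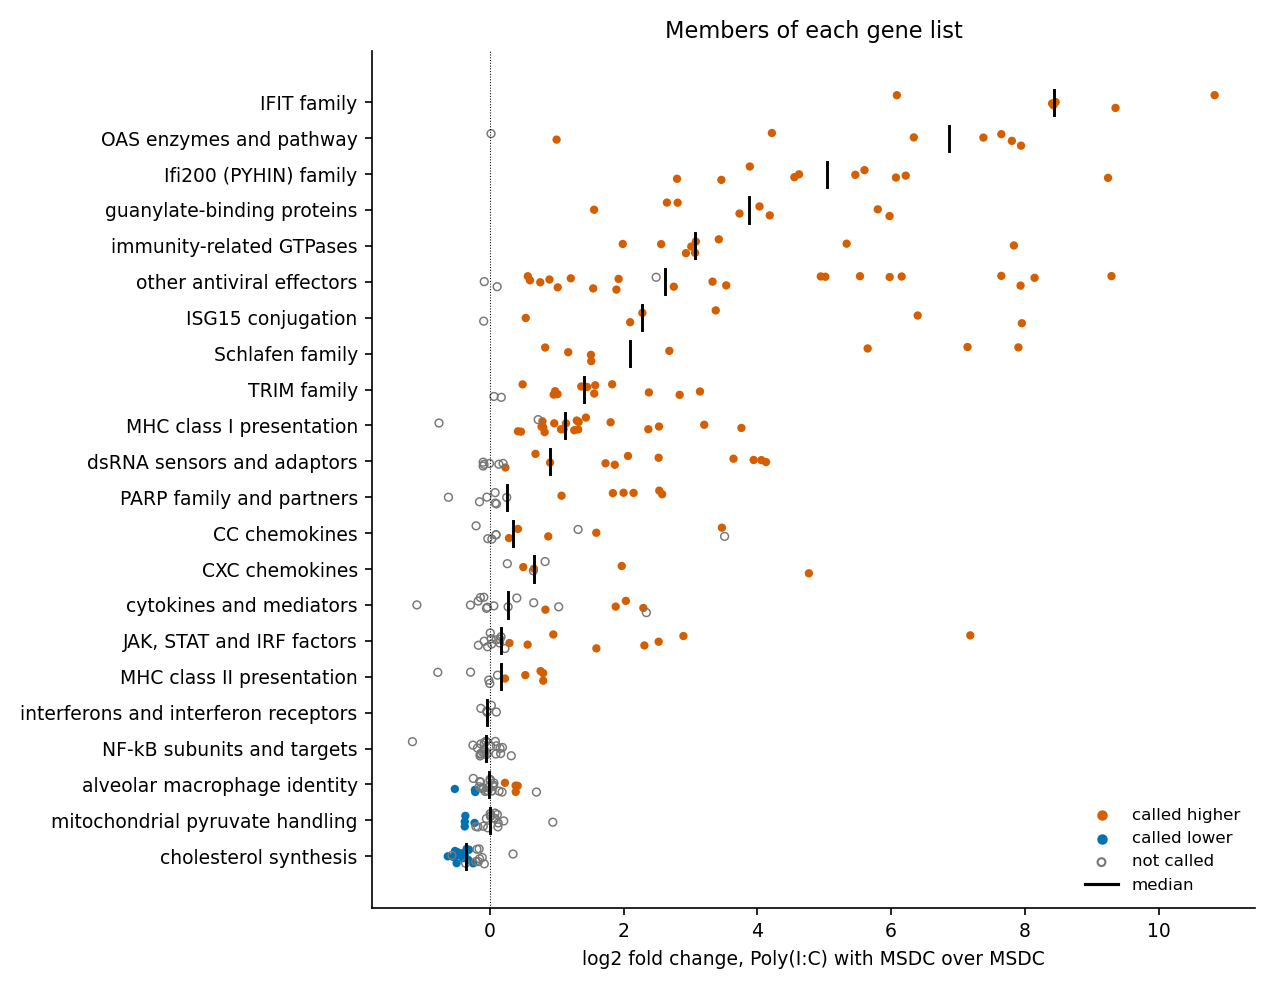
The log2 fold change of Poly(I:C) with MSDC over MSDC for each tested member of 22 gene lists, 1 point per gene, filled where called and open where not, with a bar at the median of the list. The IFIT, OAS, Ifi200 and GTPase lists lie wholly or almost wholly to the right of 0, NF-kB members straddle 0, and most of cholesterol synthesis lies to the left.

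No counts were seen for the 3 type I interferon genes examined. Ifnb1, Ifna1 and Ifna4 had 0 counts in all 4 MSDC-treated libraries, and 3 counts correspond to 0.102 to 0.103 CPM there. Ifna2, Ifna5, Ifnl2, Ifnl3 and Ifng were absent from the gene table, and further interferon genes were not analysed here. None of the 5 tested receptor genes was called (4.82% and 1.5% of all tested genes were called higher and lower). Ifnar1 stood at 49.5 and 48.0 CPM in Poly(I:C) with MSDC, against 47.5 and 48.4 CPM in MSDC, and Ifnar2 at 69.8 and 72.5 CPM, against 64.5 and 68.5 CPM in MSDC. The factors downstream of that receptor did rise, 8 of 19 tested with 0 lower and a median of 0.17. Irf7, the factor that amplifies interferon production, stood at 407 and 456 CPM in Poly(I:C) with MSDC, against 1.69 and 4.22 CPM in MSDC, a change of 7.18 (SE 0.31, adjusted p = 8.8e-11), or 7.98 without MSDC replicate 2. Stat2 changed by 2.52, Irf9 by 2.89, Irf1 by 0.95 and Irf5 by 0.56. Among inhibitors of this pathway 2 of 10 tested were called higher, Usp18 and Socs1, which blocks JAK kinases. Socs1 stood at 9.67 and 8.24 CPM, against 3.13 and 2.47 CPM in MSDC, a change of 1.68 (SE 0.16, adjusted p = 2.4e-06).

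Promoters were searched for 4 motifs on both strands in RefSeq windows of 300 bases, which 9379 of the 11621 tested genes have. The ISRE core described above lay in the window of 56.2% of the genes called at least 16-fold higher (27 of 48), 38.8% of those called 4-fold to below 16-fold higher (19 of 49), 28% of those called 2-fold to below 4-fold higher (21 of 75) and 10.4% of those called higher by less (28 of 268). It lay in 2.4% of genes called lower (3 of 125) and 3.12% of genes not called (275 of 8814), beside 3.98% of all tested genes with a window and 3.99% of the 27025 genes with a window in the RefSeq table. The share thus fell with each smaller size of rise. The GAS core TTCNNNGAA, the palindrome to which STAT dimers bind, lay in 11.1% of genes called higher (49 of 440) and 8.3% of all tested genes with a window (778 of 9379). The kappaB core, GGGAA and CC with any 3 bases between them, to which NF-kB binds, lay in 12.7% of genes called higher and 8.01% of all tested genes with a window. The sterol element core TCACNCCAC, to which the regulators of cholesterol synthesis bind, lay in 4% of genes called lower (5 of 125) and 1.28% of all tested genes with a window. In 48 windows both an ISRE core and a GAS core were found, and in 14 of them the matches overlapped. Of the 15 largest rises 12 have a window and 7 of these hold an ISRE core, namely Ifit1bl1, Rsad2, Ifit1, Ifit3, Ifit3b, Oas3 and Slfn5. Irf7, Oasl1, Oasl2, Cmpk2 and Slfn1 have a window without these letters.

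**Figure D4:**
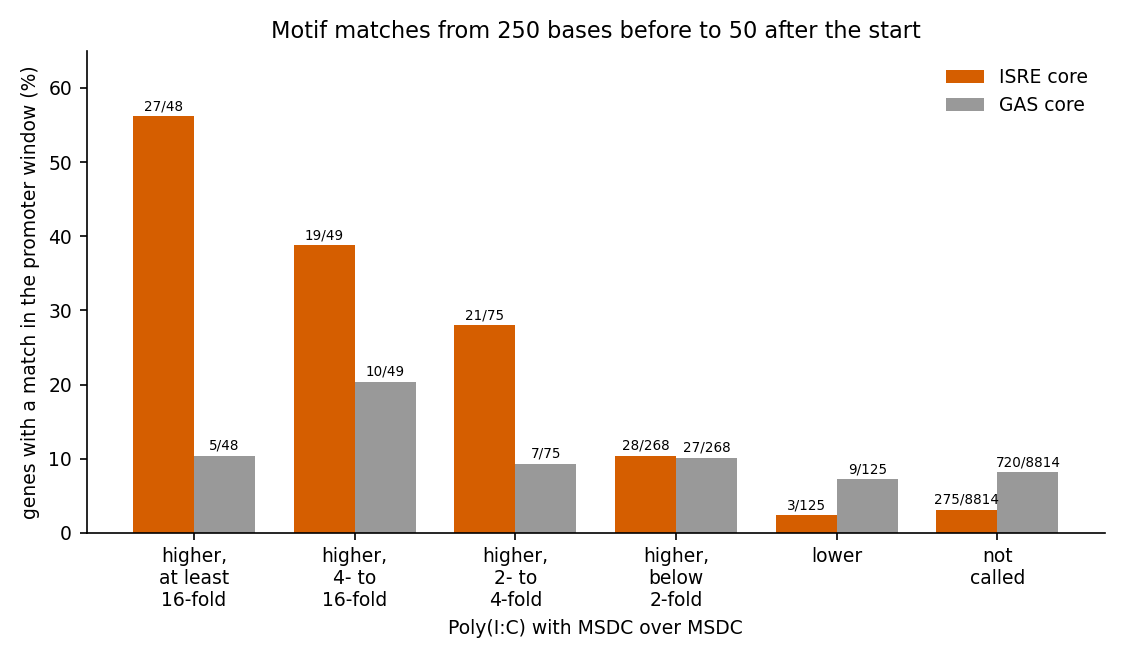
Share of genes whose RefSeq promoter window holds the ISRE core (orange) or the GAS core (grey), for genes grouped by their response to Poly(I:C) in MSDC; the numbers over the bars are genes with a match over genes with a window. The ISRE share steps down over the 4 sizes of rise, at 56.2%, 38.8%, 28% and 10.4%, and is 2.4% for genes called lower and 3.12% for genes not called.

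Transcripts for antigen presentation on MHC class I molecules were raised broadly and moderately, with 20 of 22 tested genes called higher and a median of 1.12. B2m, the light chain shared by class I molecules, stood at 2559 and 2315 CPM in Poly(I:C) with MSDC, against 1170 and 1101 CPM in MSDC, a change of 1.10 (SE 0.07, adjusted p = 2.7e-08). On the per-length FPKM scale B2m ranked 11 among the tested genes in Poly(I:C) with MSDC and 32 in MSDC. Tap1, which pumps peptides into the endoplasmic reticulum, stood at 125 and 130 CPM, against 25.4 and 23.9 CPM in MSDC, a change of 2.37 (SE 0.07, adjusted p = 3.5e-12). Tapbp, which loads these peptides, changed by 1.81 and Psmb8, a subunit of the immunoproteasome, by 1.44. Nlrc5, the transactivator of class I genes, stood at 37.4 and 42.9 CPM, against 3.48 and 5.20 CPM in MSDC, a change of 3.21 (SE 0.15, adjusted p = 1.7e-10). The classical heavy chains H2-K1 and H2-D1 changed by 0.96 and 0.46, and the non-classical H2-T24 by 3.76. Transcripts for class II presentation moved less, with 5 of 10 tested genes called higher and a median of 0.17. For both lists the share to compare with is the 4.82% of all tested genes called higher. H2-Ab1 changed by 0.80, H2-Aa by 0.76 and Ctss, the protease that trims the invariant chain, by 0.53. Ciita, the class II transactivator, had 0.313 and 0.664 CPM in Poly(I:C) with MSDC, against 0.757 and 0.439 CPM in MSDC, and was not called (adjusted p = 0.84).

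Chemokine genes were called higher in 5 of 12 tested CC members and 4 of 7 tested CXC members, with 0 lower, beside 4.82% of all tested genes called higher. Cxcl10, which draws T cells through Cxcr3, stood at 6.68 and 6.57 CPM in Poly(I:C) with MSDC, against 0.0344 and 0.439 CPM in MSDC, a change of 4.77 (SE 0.47, adjusted p = 2.9e-06). Without MSDC replicate 1 it was 3.90, and against the 1 count of MSDC replicate 1 the ratio was 190 (95% counting interval 33.9 to 7523). Ccl5, which draws T cells and monocytes, stood at 5.50 and 4.78 CPM, against 0.207 and 0.710 CPM in MSDC, a change of 3.47 (SE 0.33, adjusted p = 1.7e-06), 2.85 without MSDC replicate 1 and 4.59 without MSDC replicate 2. Ccl2, the monocyte attractant, stood at 5.29 and 5.20 CPM, against 1.07 and 2.40 CPM in MSDC, a change of 1.59 (SE 0.23, adjusted p = 2.2e-04), or 2.28 without MSDC replicate 2. These 3 stayed below 7 CPM, but Ccl9, an attractant of myeloid cells, stood at 2146 and 1939 CPM in Poly(I:C) with MSDC, against 1683 and 1667 CPM in MSDC, a change of 0.29 (SE 0.06, adjusted p = 0.0096). Ccl17, a ligand of Ccr4, stood at 99.1 and 84.5 CPM, against 64.0 and 73.2 CPM in MSDC, a change of 0.42. Ccl4 changed by 0.87 and Cxcl3 by 0.50. These 4 were named by the rule, from lists chosen with earlier results of these data known. Each lost its call without at least 1 MSDC-treated library. The changes then were 0.21 to 0.29 for Ccl9, 0.30 to 0.33 for Ccl17, 0.69 for Ccl4 and 0.32 to 0.64 for Cxcl3. Leaving out single libraries reduced the count of CC chemokines called higher to 2 without MSDC replicate 1 and 3 without Poly(I:C) with MSDC replicate 1. For CXC chemokines the counts were 2 without MSDC replicate 1, 1 without MSDC replicate 2, 1 without Poly(I:C) with MSDC replicate 1 and 2 without Poly(I:C) with MSDC replicate 2. Among 17 tested cytokines and mediators 4 were called higher and 0 lower, with a median of 0.27. They were Acod1, which makes itaconate, at 2.29, the interleukin-18 decoy Il18bp at 2.03, the macrophage growth factor Csf1 at 1.88 and the receptor chain Il15ra.

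Tnf, which encodes tumour necrosis factor, and the tested NF-kB genes did not pass the threshold. Tnf stood at 16.3 and 15.6 CPM in Poly(I:C) with MSDC, against 15 and 15.6 CPM in MSDC, a change of 0.06 (SE 0.10, adjusted p = 0.84), and the groups overlapped. Il1b stood at 3.34 and 4.89 CPM, against 2.99 and 2.23 CPM in MSDC, a change of 0.66 (SE 0.21, adjusted p = 0.098). It was past the threshold without Poly(I:C) with MSDC replicate 1, at 0.90 (adjusted p = 0.040). None of the 23 tested NF-kB subunits and targets was called in either direction, beside 4.82% and 1.5% of all tested genes called higher and lower, so that a list of this size would hold few calls at the background share. Their median change was -0.06. Of these, Nfkbia, the inhibitor that NF-kB itself induces, stood at 58.6 and 61.3 CPM in Poly(I:C) with MSDC, against 69.9 and 73.0 CPM in MSDC, with an adjusted p of 0.10. At an unadjusted p under 0.05, 1908 of all tested genes passed in this comparison. A single member (1 of 23) was called lower without vehicle replicate 1, and 1 without vehicle replicate 2.

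On the cell surface, the interferon-induced antigen Ly6e, which blocks entry of coronaviruses, was among the most abundant transcripts that rose. Ly6e stood at 1959 and 1874 CPM in Poly(I:C) with MSDC, against 328 and 321 CPM in MSDC, a change of 2.56 (SE 0.08, adjusted p = 1.6e-12). Fcgr1, the high-affinity receptor for IgG, stood at 56.6 and 67.1 CPM, against 9.53 and 12.8 CPM in MSDC, a change of 2.47 (SE 0.12, adjusted p = 2.7e-10). Axl, a receptor for dying cells, stood at 1550 and 1566 CPM, against 861 and 851 CPM in MSDC, a change of 0.86 (SE 0.06, adjusted p = 3.3e-08). The groups were clearly separate for all 3 genes. Fcgr4 changed by 0.62, the lectins Lgals9 and Lgals3bp by 3.05 and 1.91, the death ligand Tnfsf10 (TRAIL) by 4.36 and the activation marker Cd69 by 2.93. Many surface genes did not move. Fc receptors were called higher in 2 of 6 tested, with a median of 0.11. Of 19 tested costimulatory, checkpoint and death ligands 7 were called higher, 1 lower and 11 not called, with a median of 0.30. For clearance of dead cells 3 of 11 tested were called higher, with a median of -0.04. Over all tested genes 4.82% were called higher and 1.5% lower. Vsir, which encodes the checkpoint protein VISTA, fell, with 55.9 and 56.5 CPM in Poly(I:C) with MSDC, against 78.6 and 78.1 CPM in MSDC, a change of -0.48 (SE 0.07, adjusted p = 1.7e-04). Some executors of inflammatory death also rose. On the list of inflammasome and cell death genes 6 of 24 tested were called higher and 1 lower, with a median of 0.14. Mlkl, which punctures the membrane in necroptosis, changed by 2.31 and Daxx, a nuclear partner of Pml, by 1.55. Gsdmd, which forms the pores of pyroptosis, changed by 0.75, and Casp4 and Casp1, which cleave it, by 0.92 and 0.51.

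Several further rises fell outside the rule by which genes were named and were chosen after their values were seen. Siglec1, a sialic acid receptor that captures viruses, stood at 1288 and 1321 CPM in Poly(I:C) with MSDC, against 433 and 440 CPM in MSDC, a change of 1.58 (SE 0.10, adjusted p = 1.6e-08). Rnf213, a giant ubiquitin ligase, stood at 596 and 670 CPM, against 35.5 and 39.4 CPM in MSDC, a change of 4.08 (SE 0.27, adjusted p = 1.8e-08). Znfx1, an RNA helicase of the antiviral response, stood at 530 and 555 CPM, against 99.7 and 98.0 CPM in MSDC, a change of 2.46 (SE 0.09, adjusted p = 8.8e-12). Each of these was separate between the groups and close between replicates. Phf11b changed by 5.81, Ms4a6c by 4.84, Epsti1 by 3.97, the RNA helicases Mov10 and Helz2 by 3.07 and 2.86, and the DNA exonuclease Trex1 by 2.59.

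Genes of cholesterol synthesis fell together by small amounts. Of 25 tested, 15 were called lower and 0 higher, beside 1.5% called lower among all tested genes, and their median change was -0.36. Mvd, a decarboxylase of the mevalonate pathway, stood at 75.9 and 78.2 CPM in Poly(I:C) with MSDC, against 118 and 120 CPM in MSDC, a change of -0.63 (SE 0.07, adjusted p = 1.0e-05). Sqle, squalene epoxidase, stood at 51.5 and 49.1 CPM, against 73.2 and 71.0 CPM in MSDC, a change of -0.52 (SE 0.08, adjusted p = 3.8e-04). Sc5d and Fdft1, further enzymes of the pathway, changed by -0.55 and -0.50. The number of members called lower was 7 without MSDC replicate 1, 9 without Poly(I:C) with MSDC replicate 1 and 8 without Poly(I:C) with MSDC replicate 2. The desaturases Scd1 and Scd2 moved the same way, Scd1 with 80.1 and 80.4 CPM in Poly(I:C) with MSDC, against 128 and 122 CPM in MSDC, a change of -0.64 (SE 0.09, adjusted p = 1.6e-04), and Scd2 by -0.51. Abca1, which exports cholesterol, rose, with 62.9 and 71.8 CPM in Poly(I:C) with MSDC, against 27.0 and 31.2 CPM in MSDC. Its change was 1.21 (SE 0.15, adjusted p = 4.4e-05). On the lipid gene list that holds Abca1, 1 of 21 tested genes was called higher, 2 lower and 18 not called. The median of that list was -0.07, and 4.82% of all tested genes were called higher.

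Other falls were as modest. Ulbp1, a ligand of the killer cell receptor NKG2D, stood at 17.4 and 17.7 CPM in Poly(I:C) with MSDC, against 29 and 31.5 CPM in MSDC, a change of -0.78 (SE 0.09, adjusted p = 2.1e-05), the largest fall the naming rule allowed. Aldoc, a glycolytic aldolase, stood at 70.9 and 68.8 CPM, against 105 and 99.4 CPM in MSDC, a change of -0.55 (SE 0.07, adjusted p = 5.3e-05). Cd24a changed by -0.54, the small GTPase Rhof by -0.57 and the keratin Krt19 by -0.52. Several of the 15 largest falls lost their call when a library was left out. The values then were -0.61 for Zdhhc2 and -0.44 for Tspan32 without MSDC replicate 2, and -0.54 for Gpx3 and -0.52 for Cd300lb without MSDC replicate 1. Without Poly(I:C) with MSDC replicate 1 they were -0.51 for Tspan32, -0.62 for Gpx3 and -0.52 for Cald1. Without Poly(I:C) with MSDC replicate 2 they were -0.46 for Zdhhc2, -0.60 for Gpx3 and -0.48 for Cd300lb. The 2 genes that fell by 2-fold or more were named after their values were seen. Hyal1, a hyaluronidase, stood at 0.313 and 0.454 CPM in Poly(I:C) with MSDC, against 1.48 and 0.980 CPM in MSDC, and lost its call without any 1 of these 4 libraries, at -1.34 to -1.96. The predicted gene Gm14434 had 0 CPM in both Poly(I:C) with MSDC libraries, against 3.86 and 6.66 CPM in MSDC, but its replicates also split in the other groups, with 0 and 6.69 CPM in Poly(I:C) with vehicle and 0 and 3.01 CPM in vehicle.

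The genes that handle pyruvate in mitochondria, where MSDC compounds are known to act, showed 4 small falls and 0 rises among 20 tested. Their median change was 0.01, and 1.5% of all tested genes were called lower. Mpc1, a subunit of the pyruvate carrier, stood at 225 and 211 CPM in Poly(I:C) with MSDC, against 245 and 266 CPM in MSDC, a change of -0.23 (SE 0.06, adjusted p = 0.047). Its partner Mpc2 stood at 99.2 and 110 CPM, against 91.2 and 103 CPM in MSDC, and was not called (adjusted p = 0.56). Pcx, which carboxylates pyruvate, and Pdk1, which inhibits its dehydrogenase, changed by -0.37 and -0.38. The list's count fell to 1 without MSDC replicate 1, 1 without MSDC replicate 2, 0 without Poly(I:C) with MSDC replicate 1 and 2 without Poly(I:C) with MSDC replicate 2. The call of Mpc1 was lost in each of these 4 fits, at -0.29, -0.19, -0.27 and -0.19, and also at -0.23 without Poly(I:C) with vehicle replicate 1 (adjusted p = 0.071) and with the replicate number as a block (adjusted p = 0.067). Pcx lost its call without MSDC replicate 2 (-0.35), without Poly(I:C) with MSDC replicate 1 (-0.34) and without Poly(I:C) with MSDC replicate 2 (-0.41), and Pdk1 without MSDC replicate 1 (-0.34) and without Poly(I:C) with MSDC replicate 1 (-0.30). No gene of the TCA cycle list (20 tested) or the fatty acid oxidation list (18 tested) was called. Over all tested genes 4.82% were called higher and 1.5% lower, so lists of this size would hold few calls at the background share.

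Of 28 tested alveolar macrophage identity genes 4 were called higher (14.3%) and 3 lower (10.7%), beside 4.82% and 1.5% of all tested genes. Their changes ranged over -0.52 to 0.70, with a median of -0.01. Pparg, the factor that defines these cells, stood at 110 and 115 CPM in Poly(I:C) with MSDC, against 114 and 111 CPM in MSDC, a change of 0.00 (SE 0.06, adjusted p = 0.99). Ear2 and Ear1, ribonucleases typical of these cells, changed by 0.38 and 0.39. The count of higher members was 2 without MSDC replicate 2, and the count of lower members was 1 without any 1 of the 4 MSDC-treated libraries and 5 without vehicle replicate 1 or vehicle replicate 2. The chaperones Pdia4 and Hsp90b1 of the endoplasmic reticulum rose slightly, by 0.37 and 0.33, and Hsp90b1 missed the threshold without MSDC replicate 2 (0.31, adjusted p = 0.059). On the list of integrated stress and unfolded protein responses 5 of 21 tested genes were called higher and 16 not called, with a median of 0.08. Npc2, a lysosomal cholesterol carrier, changed by 0.64. On the lysosome list 7 of 26 tested genes were called higher and 19 not called, with a median of 0.04. Markers of other cells moved in either direction. Monocyte markers summed to 106 and 109 CPM in Poly(I:C) with MSDC, against 120 and 111 CPM in MSDC. Most of that sum was Fn1, at 103 and 107 CPM, against 118 and 110 CPM in MSDC. Endothelial markers summed to 109 and 103 CPM, against 140 and 137 CPM in MSDC. Of the 2 tested endothelial markers Cdh5 stood at 0.800 and 0.594 CPM, against 0.723 and 0.574 CPM in MSDC. Nearly all of the endothelial sum was thus the other tested marker. Epithelial markers summed to 49.1 and 49.7 CPM, against 64.9 and 57.5 CPM in MSDC. Most of the epithelial sum was Cdh1, at 45.4 and 45.8 CPM, against 61.3 and 53.8 CPM in MSDC. Neutrophil markers summed to 24.5 and 14.2 CPM in Poly(I:C) with MSDC, against 12.4 and 17.1 CPM in MSDC. Dendritic cell markers summed to 7.79 and 6.36 CPM, against 4.58 and 5.00 CPM in MSDC. Among tested markers, 1 of 3 for monocytes, 1 of 4 for neutrophils and 1 of 3 for dendritic cells were called higher. Called lower were 1 of 7 for epithelium and 1 of 2 for endothelium. Of the markers in the gene table, 2 of 7 for T and NK cells and 1 of 12 for epithelium had 0 counts in all 4 libraries. In bulk RNA, fewer cells of a type and less RNA per cell cannot be told apart, and the part of these cells in the changes above was not tested.

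The response with MSDC was then set against the response without it. In vehicle, Poly(I:C) raised 874 genes (7.52%) and lowered 477 (4.1%), and the interaction asks whether the 2 responses differ. It was called for 14 genes with a larger response in MSDC (0.12%) and 12 with a smaller one (0.103%), and 755 genes had an unadjusted p under 0.05. Among the 107 antiviral effector genes 8 had a larger response called and 0 a smaller one, and their median change was 2.8 in MSDC and 2.54 in vehicle. For the rest no difference between the responses was called, which does not show that they were alike. Of the 13 genes with a larger response, after leaving out a predicted model, 12 stood lower in MSDC than in vehicle, and only 2 stood higher in Poly(I:C) with MSDC than in Poly(I:C) with vehicle.

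Among the named genes with a called interaction, Slfn5 had the largest, 2.92 (SE 0.47, adjusted p = 0.013). It stood at 228 and 240 CPM in Poly(I:C) with MSDC, against 1.2 and 2.1 CPM in MSDC, and at 262 and 289 CPM in Poly(I:C) with vehicle, against 21.7 and 7.86 CPM in vehicle. Its vehicle libraries differed widely from each other, and the call was lost without any 1 of the 4 MSDC-treated libraries, with values of 2.01 to 3.46 over all libraries left out in turn. Gbp7 had closer replicates, at 97.1 and 96.8 CPM in Poly(I:C) with MSDC, against 15.6 and 15.3 CPM in MSDC, and at 121 and 123 CPM in Poly(I:C) with vehicle, against 40.3 and 39.1 CPM in vehicle, an interaction of 1.03 (SE 0.10, adjusted p = 1.6e-04). Ifi27, a small interferon-induced protein, changed in opposite directions. It stood at 38.4 and 38.5 CPM in Poly(I:C) with MSDC, against 17.7 and 20.4 CPM in MSDC, and at 20.6 and 16.5 CPM in Poly(I:C) with vehicle, against 39.0 and 28.3 CPM in vehicle. Its changes were 1.01 in MSDC (adjusted p = 1.1e-04) and -0.86 in vehicle (adjusted p = 5.0e-04), with an interaction of 1.87 (SE 0.19, adjusted p = 3.5e-04).

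Smaller responses in MSDC were found for Acod1 and the complement factor Cfb. Acod1 stood at 21.0 and 19.6 CPM in Poly(I:C) with MSDC, against 4.37 and 3.89 CPM in MSDC, and at 79.1 and 68.4 CPM in Poly(I:C) with vehicle, against 5.03 and 5.32 CPM in vehicle. Its baselines were thus close and its stimulated levels far apart, with an interaction of -1.54 (SE 0.17, adjusted p = 6.2e-04). Cfb stood at 1036 and 1051 CPM in Poly(I:C) with MSDC, against 435 and 424 CPM in MSDC, and at 1118 and 1048 CPM in Poly(I:C) with vehicle, against 242 and 252 CPM in vehicle. Here the stimulated levels were close and the baseline was higher in MSDC, with an interaction of -0.85 (SE 0.08, adjusted p = 1.6e-04). The class I heavy chains H2-K1 and H2-D1 also responded less, by -0.44 and -0.43, and each lost this call in 6 of the 8 fits that left out a library. The NF-kB list, with 0 of 23 called in MSDC, had 7 of 23 called higher in vehicle, with a median of 0.22. Over all tested genes 4.82% were called higher in MSDC and 7.52% in vehicle. None of the members of the NF-kB list had a called interaction. The number of interaction calls rested on single libraries: larger responses numbered 3 without MSDC replicate 1, 4 without either Poly(I:C) with MSDC library, 23 without vehicle replicate 1 and 56 without vehicle replicate 2. Smaller responses numbered 2 without MSDC replicate 1, 3 without MSDC replicate 2, 3 without Poly(I:C) with MSDC replicate 1, 2 without Poly(I:C) with MSDC replicate 2, 5 without either Poly(I:C) with vehicle library, 39 without vehicle replicate 1 and 33 without vehicle replicate 2.

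**Figure D5:**
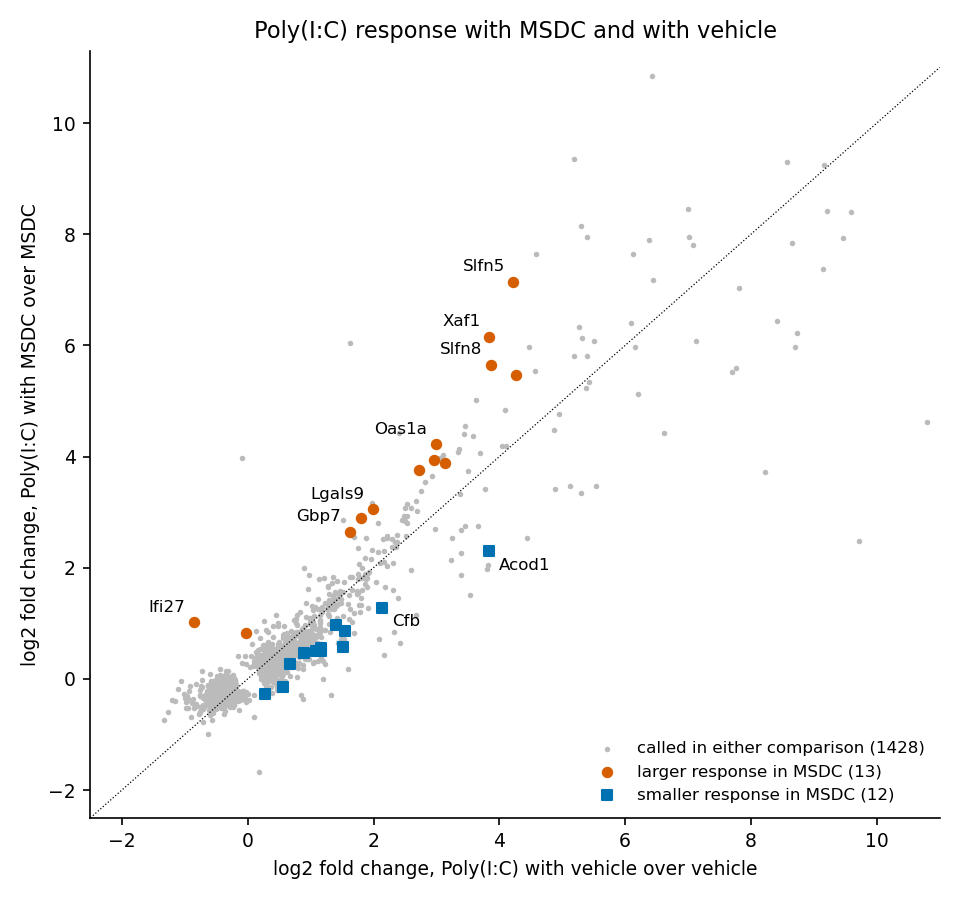
The response to Poly(I:C) with MSDC (vertical, log2 fold change over MSDC) against that with vehicle (horizontal, log2 fold change over vehicle) for genes called in either comparison; the dotted line marks equal responses, and 3 genes lie outside the axes. Orange circles are the 13 genes whose response was larger in MSDC and blue squares the 12 whose response was smaller, predicted models left out, and Ifi27 sits above the line on the other side of 0.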

How the data were processed

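RNA was sequenced from mouse alveolar macrophages in 4 groups of 2 libraries. The authors deposited a single gene table with estimated read counts, FPKM and TPM for each library, as the file headers name them. Per the submitters' processing notes, TopHat2 2.1.1, Bowtie2 2.3.4, Cuffdiff and the build GRCm38 (mm10) were used; the roles of the tools and any use of strand in counting are not given in the sources used here. As for units, the deposited estimated counts were not normalised, and 5.95% to 7.19% of values per library were not whole, so they were rounded. The deposited FPKM values, scaled for gene length and depth, served for ranks and 1 alternative, and the deposited TPM values were not used. Of the gene IDs, 15419 (99.3%) matched the RefSeq annotation, and 23 symbols turned into dates by a spreadsheet were repaired by ID.

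Counts were filtered with filterByExpr, scaled by TMM and fitted with edgeR 4.0.16 (glmQLFit and glmQLFTest, R 4.3.3) over all 8 libraries, with 4 residual degrees of freedom. Total counts per library were 28762425 to 29493223, so that 3 counts, taken as the limit for a gene with none, equal 0.102 to 0.104 CPM. Genes were named by rule: of those called, with no overlap between groups and a mean of at least 5 CPM in the higher group, the 15 that rose most and the 15 that fell most, predicted models left out. They also included up to 6 genes of each list with the smallest p, all members of the innate sensing, interferon, chemokine, cytokine and cholesterol lists, and genes with a called interaction. The members and lists were chosen with earlier results of these data known. Alternatives were DESeq2 1.42.0, limma 3.58.1 on log2(FPKM + 0.1), scaling by library totals, no filter, the 4 MSDC-treated libraries alone, the replicate number as a block, and each library left out in turn. The scripts were tested on simulated data. A few genes the rule names are not reported here.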

Additional observations from a re-analysis of the deposited data

Results flagged for a closer look

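The response to Poly(I:C) differed between MSDC and vehicle for 25 genes by edgeR's interaction test, and each value below is that difference on the log2 scale, positive where the response was larger in MSDC. Among interferon-induced genes the response was larger for Slfn5 (2.92), Xaf1 (2.33), Ifi27 (1.87), Slfn8 (1.79), Oas1a (1.23), Ifi204 (1.19), Irf9 (1.1), Gbp7 (1.03), Dhx58 (0.98) and Mndal (0.75). It was also larger for the lectin Lgals9 (1.05), the class I gene H2-T24 (1.04) and the nuclear receptor coactivator Ncoa7 (0.85). Of these 13 genes, 12 had a lower level in MSDC than in vehicle.

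Smaller responses in MSDC were found for Acod1 (-1.54), the semaphorin Sema4d (-0.94), the complement factor Cfb (-0.85) and the lectin receptor Clec4e (-0.72). They were also found for the selenoprotein Selenow (-0.66), the nucleotidase Nt5c3 (-0.61) and Ass1 (-0.58), which makes argininosuccinate. Further ones were the AP-1 subunit Junb (-0.55), the class I heavy chains H2-K1 (-0.44) and H2-D1 (-0.43) and the beta-glucan receptor Clec7a (-0.39). Smaller here refers to the signed change. Junb fell in MSDC, at -0.27, and Clec4e changed by -0.15 in MSDC (not called) against 0.57 in vehicle. Of the 12 genes called with a smaller response, 11 had a lower level in Poly(I:C) with MSDC than in Poly(I:C) with vehicle. Ass1 stood at 179 and 173 CPM in Poly(I:C) with MSDC, against 127 and 121 CPM in MSDC, and at 534 and 540 CPM in Poly(I:C) with vehicle, against 244 and 262 CPM in vehicle. Lgals9 stood at 188 and 186 CPM in Poly(I:C) with MSDC, against 21.5 and 23.8 CPM in MSDC, and at 384 and 427 CPM in Poly(I:C) with vehicle, against 110 and 93.9 CPM in vehicle. Of all 25, Acod1, Cfb, Gbp7, Lgals9 and Ifi27 were called under every alternative, each library left out included, and the remaining genes were not.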

How the results depend on the processing

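The 560 higher genes ranged over 351 to 729, and the 230 genes at least 2-fold higher over 209 to 241, when libraries were left out in turn; the other fits gave 466 to 753 and 222 to 249. The 174 lower genes ranged over 50 to 421 with libraries left out, and were 298 without the filter on low counts and 429 with the 4 MSDC-treated libraries fitted alone. The 2 genes at least 2-fold lower ranged over 0 to 6, and were 7 with limma, 4 without the filter and 9 with the 4 libraries alone. Larger responses in MSDC (14) ranged over 3 to 56, and were 23 with DESeq2, 3 with limma and 64 without the filter. Smaller responses (12) ranged over 2 to 39, and were 25 with DESeq2, 4 with limma, 4 with scaling by library totals and 52 without the filter. The causes were not tested. Replicate numbers were shared by the groups but same-numbered libraries did not deviate together, with correlations of -0.03 to 0.04 over 6 pairs of groups. With the replicate block 543 genes were higher, 149 lower, 227 at least 2-fold higher and 3 at least 2-fold lower, with 16 larger and 8 smaller responses. Of 149 genes checked singly, 129 had the same call under every alternative, and none changed direction. Outside fits that left out a library, Mpc1 (adjusted p = 0.067) and Junb (adjusted p = 0.061) missed edgeR's threshold with the block, Sema4d, Clec7a, Ccl9, Ccl17 and Cxcl3 with limma, Cxcl3 with scaling by library totals (adjusted p = 0.061), and Gm14434 with DESeq2 and limma, while Il1b passed without the filter (0.65, adjusted p = 0.017). With 2 libraries a group, and vehicle replicates further apart than the others (chi-square per degree of freedom 15.2, against 4.35 to 6.49), falls under 0.5 on the log2 scale and interactions are the least secure results.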
